A study of Mus musculus with 12 samples.

Results

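The genes described here are those of the amino acid response driven by the transcription factor ATF4, together with the cytosolic aminoacyl-tRNA synthetases, in mouse tongue tumours. They were chosen by name, as 41 genes of amino acid synthesis, amino acid transport, ATF4 signalling and tRNA charging, of which 39 had a probe among the 16593 genes named on the array. The choice was made with earlier results of these data known. Of these 39 genes, 34 had a probe above background on at least 5 of 12 arrays, and the probes used for all 34 lay above background on every array. The tested samples were 7 tongue tumours of B6 mice aged 8 months that had been dosed for 8 weeks with 2 agents, the DNA-damaging carcinogen 4NQO at 200 µg/mL and arecoline, an alkaloid of the areca nut, at 500 µg/mL, with a rest of 20 weeks before collection. They were set against 5 normal tongues of B6 mice of the same age that had been given DMSO over the same 8 weeks and rested as long. Whether the pieces came from separate animals is not given in the labels, so the p-values reflect only how far these pieces varied, which may be technical. Each sample was a whole piece of tissue. The comparison asks how messenger RNA levels in the induced tumours differ from those of normal tongue.

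ATF4 is a transcription factor whose messenger RNA is translated more when the initiation factor eIF2 is phosphorylated, as happens when a cell lacks amino acids or carries unfolded protein in the endoplasmic reticulum. Its protein then binds composite C/EBP-ATF response elements and raises genes that make, import and attach amino acids. The aminoacyl-tRNA synthetases join each amino acid to its tRNA and so supply translation, and many of their genes are known ATF4 targets. Because ATF4 is controlled mainly in translation, the level of its own messenger RNA is a poor guide to its activity.

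A sequence feature was found in some of these genes. Their choice did not use sequence but included known ATF4 targets, so the share with the feature is not independent of that choice. The core of the C/EBP-ATF response element, TGATGNAA, was searched on both strands (the only motif searched) of RefSeq promoters of the GRCm38.p6 assembly, each running from 250 bases before to 50 after the annotated start. It was found in 10 of 32 genes with a promoter that was searched (31.2%), against 4.51% of all 27025 genes with a promoter and 3.31% of the 8705 such genes measured on these arrays. Promoters of the set were filtered by chromosome, a step not applied to the promoters behind the other shares. Among the 32 were 5 of 13 cytosolic synthetases (Aars, Gars, Iars, Tars and Yars) and 5 of 19 other genes (Asns, Pycr1, Slc1a4, Chac1 and Trib3). A match is a run of letters, not a shown binding site. The 4 promoters below are shown because they belong to genes that changed in opposite directions in the tumours, namely Asns, Slc1a4 and Gars (higher) and Chac1 (lower). Each is written 5′ to 3′ on the strand of its gene, with the matched letters in capitals. Asns lies at chr6:7693160-7693459 on the minus strand and Slc1a4 at chr11:20332664-20332963 on the minus strand, while Gars lies at chr6:55037751-55038050 and Chac1 at chr2:119350992-119351291, both on the plus strand.
Asns: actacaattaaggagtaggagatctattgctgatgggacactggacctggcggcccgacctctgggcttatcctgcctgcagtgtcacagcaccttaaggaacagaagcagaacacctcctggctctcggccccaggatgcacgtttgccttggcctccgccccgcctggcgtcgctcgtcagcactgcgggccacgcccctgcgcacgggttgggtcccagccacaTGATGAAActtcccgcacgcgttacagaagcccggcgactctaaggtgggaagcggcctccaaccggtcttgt
Slc1a4: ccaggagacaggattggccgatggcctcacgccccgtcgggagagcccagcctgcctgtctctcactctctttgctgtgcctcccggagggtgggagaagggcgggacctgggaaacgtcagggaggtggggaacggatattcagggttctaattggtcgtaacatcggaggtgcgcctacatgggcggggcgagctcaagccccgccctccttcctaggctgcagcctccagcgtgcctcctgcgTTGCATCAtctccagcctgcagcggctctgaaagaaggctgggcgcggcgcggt
Gars: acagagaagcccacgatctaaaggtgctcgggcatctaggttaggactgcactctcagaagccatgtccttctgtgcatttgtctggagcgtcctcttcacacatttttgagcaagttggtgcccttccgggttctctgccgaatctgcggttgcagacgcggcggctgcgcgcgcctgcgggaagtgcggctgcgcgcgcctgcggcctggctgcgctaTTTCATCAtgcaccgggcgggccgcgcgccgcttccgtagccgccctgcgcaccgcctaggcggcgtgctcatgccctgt
Chac1: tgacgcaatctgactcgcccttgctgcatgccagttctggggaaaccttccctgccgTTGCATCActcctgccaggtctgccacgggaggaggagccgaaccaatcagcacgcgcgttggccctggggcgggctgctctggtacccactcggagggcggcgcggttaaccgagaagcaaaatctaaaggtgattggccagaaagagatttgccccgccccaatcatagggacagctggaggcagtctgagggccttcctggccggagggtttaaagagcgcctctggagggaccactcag
The first matched base lies at position −23 from the start in Asns, −4 in Slc1a4, −30 in Gars and −193 in Chac1. The letters differ at the free base and in strand, with TGATGAAA read on the gene's strand in Asns, TTGCATCA in Slc1a4 and Chac1 and TTTCATCA in Gars. Called genes of both directions and genes not called held a match, in 4 of 15 genes called higher, 1 of 3 called lower and 3 of 9 not called.

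Tumours and normal tongues differed across most of the array, which sets the background for every count below. Of 10781 genes tested with limma, 56.1% were called, 32.5% higher and 23.6% lower in tumours, and the groups did not overlap with tumours higher for 21% and with tumours lower for 16.9%. The arrays correlated at r = 0.92 to 0.98 among tumours, 0.97 to 1.00 among normals and 0.80 to 0.91 between them, across genes. The tissue differed in its cells as well. All 11 measured skeletal muscle markers fell, with a mean log2 signal over the list of 8.50 to 12.71 in tumours, highest in tumours 2 and 4, against 13.73 to 14.10 in normals. Of 10 squamous epithelium markers 9 rose and 1 fell, with 11.83 to 12.41 in tumours against 10.07 to 10.53 in normals, and all 7 proliferation markers rose, with 9.58 to 10.75 against 7.89 to 8.43. Salivary gland markers averaged 9.80 on tumour 2 and 13.31 on normal 1, against 6.39 to 7.69 on the other 10 arrays. Among neutrophil markers 5 of 6 rose (9.63 to 10.85 in tumours against at most 7.66 in normals) and among T cell markers 3 of 4 (6.68 to 8.03 against 6.34 to 6.49), and Cxcr2 and Cd3d of these lists were above background on 7 tumours and 0 normals. Cd3e and Cd3g were above it on 7 tumours and 1 normal each, so the 3 T cell markers that rose were kept through the tumours. Cd2, above it on 4 tumours and 4 normals, was not called. Of the neutrophil markers S100a9 (7.39) and S100a8 (6.55) rose most, followed by Mmp9 (1.94), Cxcr2 (1.00) and Csf3r (0.99). Retnlg (0.80) was not called. Macrophage markers had 0 of 5 called higher and 2 lower, Cd163 (−2.93) and Mrc1 (−1.71), with 7.50 to 8.73 in tumours against 8.72 to 9.30 in normals. Of 6 fibroblast markers Dcn (−1.53), Lum (−1.66) and Pdgfra (−1.37) fell and Col1a1 (1.30) rose, with 8.87 to 10.32 in tumours against 9.83 to 10.51 in normals. Fewer cells of a type and less RNA per cell cannot be told apart in whole pieces of tissue, and the part of these cell types in the differences below was not tested.

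All 7 measured amino acid synthesis enzymes, 3 of 4 measured transporters and 9 of 17 synthetases rose in the tumours. Of 6 genes grouped as regulators, which include the enzyme Chac1, 3 fell and 1 rose. Under centring on the reference genes only Asns stayed called higher, though some others stayed above 0 without a call. Of the 34 genes, 20 were called higher (58.8%, against 32.5% of all genes) and 3 lower (8.82%, against 23.6%). The other 11 were not called, against 4732 of all 10781 genes. All tumours exceeded all normals in 12 of the 34 genes, beside 21% of all genes tested. The reverse held in 2 of the 34, beside 16.9%. The median log2 difference of the 34 genes was 0.40, against 0.07 for all genes. Because the genes were chosen with earlier results of these data known, these shares and medians were not tested against those of all genes. These directions are relative to the scaling of the arrays. When each array was centred on 8 reference genes, of which 7 were themselves called higher in tumours before centring, the median of all genes moved to −0.59 and that of the 34 genes to −0.25, so that 1 gene was called higher and 16 lower. That centring lowered every gene by the same amount, and each gene whose difference is given below as between 0 and 0.65 turned below 0 under it. Under cyclic loess 14 were called higher and 5 lower, with a median of 0.20 against −0.01 for all genes.

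**Figure D1:**
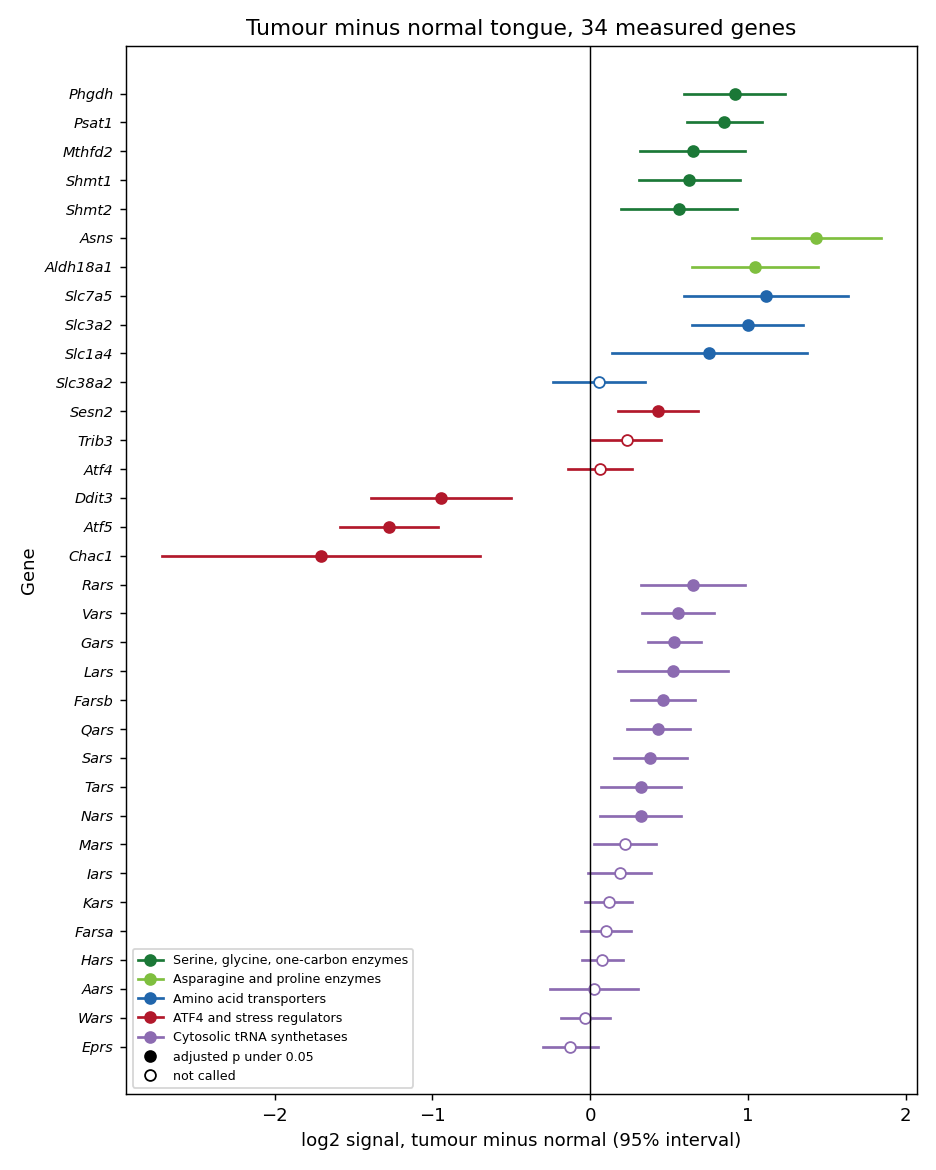
Log2 difference, tumour minus normal, of the 34 measured genes (points; bars are 95% intervals from limma; filled points have an adjusted p under 0.05), grouped by role. Enzymes and most transporters lie right of 0, Chac1, Atf5 and Ddit3 lie left of it, and synthetases lie between −0.13 and 0.65; under centring on reference genes the synthetases lie between −0.78 and −0.01.

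Asparagine synthetase, Asns, which makes asparagine from aspartate and glutamine and is a classical ATF4 target, had the largest rise of the 34 genes. Its log2 signal (probe ILMN_2643513) had a lowest value of 11.73, a median of 12.06 and a highest value of 12.63 in tumours, against 11.31, 10.69, 10.52, 10.33 and 10.44 in normals 1 to 5. Every tumour was above every normal, and normal 1, the normal with high salivary gland markers, was the normal nearest to the tumours. Asns was 2.70-fold higher in tumours (log2 1.43, SE 0.19, limma adjusted p = 3.20e-05; 12.09 ± 0.32 in tumours and 10.66 ± 0.39 in normals, SD, n = 7 and 5). It was the gene called higher under centring on the reference genes too (0.77, adjusted p = 0.00305), and its difference without normal 1 was the highest of those without any 1 array (1.34 to 1.60). Its other probes gave 0.92 and 1.32, both called.

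Of the proline pathway, Aldh18a1 was measured and Pycr1 had no probe. Aldh18a1, which makes the precursor of proline and ornithine from glutamate, had 8.85, 9.47 and 9.70 in tumours (lowest, median, highest), against 8.99, 8.41, 8.10, 7.91 and 8.11 in normals 1 to 5. The groups overlapped through normal 1 alone, which lay above tumour 7. Aldh18a1 rose by log2 1.04 (SE 0.18, limma adjusted p = 3.49e-04), and by 1.22 without normal 1; under centring on the reference genes it had 0.38 and was not called.

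Serine is made from a glycolytic intermediate by Phgdh, Psat1 and Psph in turn, and serine hydroxymethyltransferase (Shmt1 in the cytosol, Shmt2 in mitochondria) then passes a carbon to folate and yields glycine. All 5 measured genes of this group rose, with a median log2 difference of 0.65, and under centring on the reference genes none of the 5 was called and Shmt1, Shmt2 and Mthfd2 turned below 0. Psat1, the aminotransferase of the pathway, had 11.41, 11.85 and 12.16 in tumours (lowest, median, highest), against 10.84, 11.15, 11.01, 10.87 and 10.96 in normals. Phgdh, its first and committing enzyme, had 8.59, 9.19 and 9.57 in tumours, against 8.07, 8.30, 8.21, 8.35 and 8.39 in normals. Neither gene's groups overlapped, although tumour 4 was near the normals for Phgdh and tumour 2 was the lowest for Psat1. The difference was log2 0.85 for Psat1 (SE 0.11, limma adjusted p = 2.81e-05) and 0.92 for Phgdh (SE 0.15, limma adjusted p = 1.64e-04).

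Both hydroxymethyltransferases and the mitochondrial folate enzyme Mthfd2 rose less. Shmt2 had 7.99, 8.31 and 8.99 in tumours, against 7.95, 7.92, 7.80, 7.88 and 7.81 in normals, so that the groups were separate by a narrow margin at tumour 2. It rose by 0.56 (SE 0.17, limma adjusted p = 0.0130), and its second probe by 0.59. Mthfd2, which is low in most adult tissues and abundant in embryonic and tumour cells, had 7.78, 8.14 and 8.74 in tumours, against 7.73, 7.47, 7.51, 7.32 and 7.25 in normals, and rose by 0.65 (SE 0.15, limma adjusted p = 0.00293). Shmt1 had 7.34, 7.96 and 8.25 in tumours, against 6.83, 7.37, 7.26, 7.45 and 7.29 in normals, and the groups overlapped through tumour 2 alone. It rose by 0.63 (SE 0.15, limma adjusted p = 0.00273). Psph, the phosphatase that completes serine, was above background on none of 12 arrays.

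Partner genes of these routes were read beside them. Of 7 measured genes of folate, glycine and proline metabolism outside the set, 0 were called higher and 2 lower (28.6%) by limma, with a median of −0.03. Of all genes 32.5% were called higher and 23.6% lower. The 5 not called ranged from −0.14 (Gldc) to 0.34 (Aldh1l1). The 2 were Dld (log2 −1.11), the lipoamide dehydrogenase shared by the glycine cleavage system and the mitochondrial dehydrogenase complexes, and Prodh (−0.98), which breaks down proline. Muscle markers fell in the same tumours, and their part in these 2 falls was not tested.

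**Figure D2:**
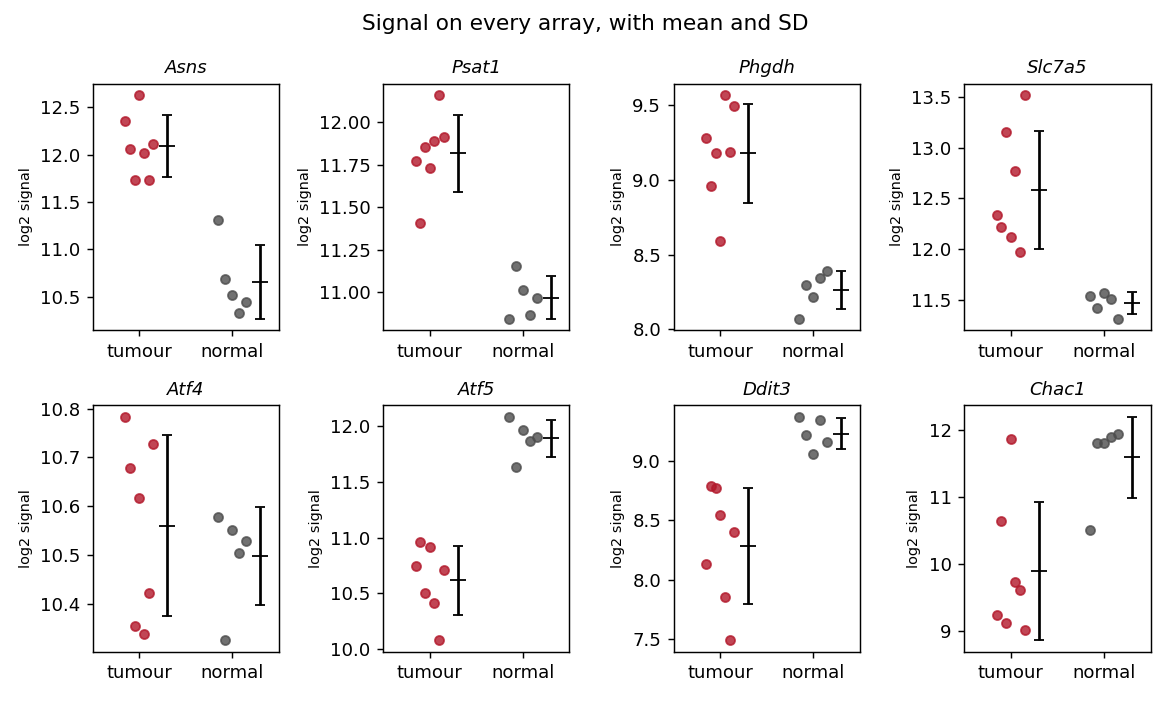
Log2 signal of 8 genes on every array (points), with the mean and SD beside them, tumours left of normals; each panel has its own axis, which does not start at 0. Asns, Psat1, Phgdh and Slc7a5 lie higher in all 7 tumours than in all 5 normals, Atf5 and Ddit3 lie lower, Atf4 overlaps, and Chac1 is spread over 9.01 to 11.87 in tumours; under centring on the reference genes only Asns of the first 4 is called.

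Of the amino acid transporters 3 of 4 measured genes rose and Slc38a2 was not called; under centring on the reference genes the 3 had differences of 0.10 to 0.46 and none was called. Slc7a5 is the LAT1 carrier of large neutral amino acids such as leucine, and Slc3a2 encodes CD98, the heavy chain that carries it to the membrane. Slc7a5 had 11.97, 12.34 and 13.52 in tumours (lowest, median, highest), against 11.54, 11.42, 11.57, 11.51 and 11.31 in normals. Slc3a2 had 7.19, 7.55 and 8.27 in tumours, against 6.78, 6.61, 6.57, 6.47 and 6.58 in normals. Both pairs of groups were separate, with tumours 7 and 3 highest for Slc7a5 and tumour 6 highest for Slc3a2. Slc7a5 rose by log2 1.12 (SE 0.24, limma adjusted p = 0.00153) and Slc3a2 by 1.00 (SE 0.16, limma adjusted p = 1.91e-04).

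Slc1a4, the ASCT1 carrier of alanine, serine and cysteine, had a wide spread in the tumours. It had 9.13, 9.37 and 11.11 in tumours (lowest, median, highest), against 8.70, 9.18, 8.76, 8.85 and 8.94 in normals. Tumour 6 stood apart at 11.11, where the other tumours had at most 9.80, and tumours 2 and 4 lay within the range of the normals. Slc1a4 rose by 0.76 (SE 0.29, limma adjusted p = 0.0388), with 0.51 without tumour 6, still called. The call was lost in 10 of 25 alternatives. Among them were those without tumour 3 or 5 or normal 1, 3, 4 or 5 (0.71 to 0.77), and cyclic loess (0.59). Slc38a2, the SNAT2 glutamine carrier, had 11.58, 11.69 and 12.15 in tumours, against 11.48, 11.80 and 12.04 (lowest, median, highest) in normals. It had a difference of 0.05 (95% interval −0.24 to 0.35), or −0.17 under cyclic loess, with overlapping groups, and its other probes gave 0.06 and 0.14, neither called. Slc1a5 (ASCT2, for glutamine) was above background on none of 12 arrays, and Slc7a1 (CAT-1, for arginine and lysine) on 4 of 7 tumours and 0 of 5 normals by the better of its probes.

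Of 6 genes grouped as regulators 1 rose, 3 fell and 2 were not called, and the 3 that fell did so under each of the scalings run. Atf4 itself had 10.34, 10.62 and 10.78 in tumours (lowest, median, highest), against 10.58, 10.32, 10.55, 10.51 and 10.53 in normals. The groups overlapped, and the difference was log2 0.06 (95% interval −0.14 to 0.26), or −0.10 under cyclic loess and −0.60, called lower, when centred on the reference genes, close to the median of all genes there.

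Atf5, a related bZIP factor that is also translated on eIF2 phosphorylation, fell most evenly. It had 10.08, 10.71 and 10.96 in tumours, against 12.09, 11.64, 11.97, 11.86 and 11.90 in normals, and every tumour was below every normal. The difference was log2 −1.28 (SE 0.14, limma adjusted p = 8.58e-06), or 2.42-fold lower in tumours. Ddit3, which encodes CHOP, the factor that promotes death under lasting stress, had 7.49, 8.40 and 8.79 in tumours, against 9.37, 9.21, 9.05, 9.34 and 9.16 in normals, again without overlap. It fell by 0.94 (SE 0.21, limma adjusted p = 0.00163), and its second probe gave −0.83, also called.

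Chac1, a glutathione-degrading enzyme induced by ATF4 and CHOP, had the largest difference of the set and the widest spread. It had 9.01, 9.61 and 11.87 in tumours, against 10.51, 11.81, 11.81, 11.90 and 11.94 in normals 1 to 5. Tumours 2 and 4 lay within the range of the normals, and normal 1 stood apart below the other normals. Chac1 was 3.26-fold lower in tumours (log2 −1.71, SE 0.46, limma adjusted p = 0.00708), with −2.04 to −1.56 without any 1 array. The call was lost in the exact rank-sum test (adjusted p = 0.0550). The tumours with the highest muscle marker signal, 2 and 4, were also the highest for Atf5 (10.96 and 10.91) and Chac1 (10.65 and 11.87), and for Ddit3 tumours 2, 3 and 4 had 8.79, 8.77 and 8.54; all these lay below the normals except Chac1, whose values in both lay above normal 1. The part of muscle in these falls was not tested.

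Sesn2, which restrains mTORC1 when leucine is short, rose, and Trib3, a pseudokinase that ATF4 induces, was not called. Sesn2 had 6.86, 7.12 and 7.49 in tumours, against 6.83, 6.74, 6.64, 6.64 and 6.67 in normals, with no overlap. It rose by 0.43 (SE 0.12, limma adjusted p = 0.00689), and had −0.23, not called, when centred on the reference genes. Trib3 had 6.95, 7.11 and 7.51 in tumours, against 6.82, 6.83, 6.99, 7.11 and 6.91 in normals, with overlap. Its difference was 0.23 (SE 0.10, limma adjusted p = 0.0663). Trib3 was called higher in 5 of 25 alternatives, among them those without tumour 2 (0.26), tumour 3 (0.27) or normal 4 (0.28). It had −0.43, called lower, when centred on the reference genes.

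Log2 ratios of 2 genes on the same array are free of any shift of a whole array, and 6 pairs are described by them. The pairs were chosen after the values above were seen, so they carry no test. Asns over Atf4 was 1.53 ± 0.25 in tumours and 0.16 ± 0.38 in normals (SD, n = 7 and 5), a difference of 1.37 (SE 0.20). Asns over Ddit3 was 3.81 ± 0.52 in tumours and 1.43 ± 0.35 in normals, a difference of 2.38 (SE 0.25). The 7 tumours lay above all 5 normals for both ratios, and centring an array leaves them as they are.

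The other 4 pairs join genes of successive steps, of the same reaction or of 1 complex. Slc7a5 over Slc3a2 differed by 0.12 (SE 0.25), Psat1 over Phgdh by −0.06 (SE 0.13) and Shmt2 over Shmt1 by −0.07 (SE 0.18), with overlapping groups in each. These differences are smaller than their standard errors, which does not show that the members changed alike. Phenylalanyl-tRNA synthetase is a tetramer of alpha chains from Farsa and beta chains from Farsb. Farsb over Farsa was 4.76 ± 0.12 in tumours and 4.40 ± 0.17 in normals, without overlap, a difference of 0.36 (SE 0.09), or 0.20 under cyclic loess. Farsa was dim, averaging 7.14 in tumours and 7.04 in normals, against 11.90 and 11.44 for Farsb. The part of low signal in this ratio was not tested.

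Cytosolic synthetases rose in 9 of 17 measured cases, with 0 called lower and 8 not called, a median difference of 0.32 and no rise above log2 0.65; under centring on the reference genes 0 were called higher and 10 lower (median −0.34), and under cyclic loess 4 higher (Rars, Vars, Gars and Farsb) and 2 lower (Eprs and Wars; median 0.15). The share called higher, 52.9%, stood against 32.5% of all genes. Tumours lay wholly above normals for Rars, Vars, Gars and Farsb, 4 of the 17, against 21% of all genes. Rars, which charges arginine tRNA, had 10.78, 11.30 and 11.72 in tumours (lowest, median, highest), against 10.53, 10.73, 10.74, 10.60 and 10.50 in normals. Vars, for valine, had 9.37, 9.74 and 9.98 in tumours, against 9.17, 9.16, 8.97, 9.22 and 9.31 in normals. Tumour 2 was the lowest tumour for both and lay just above the normals. Rars rose by 0.65 (SE 0.15, limma adjusted p = 0.00270) and Vars by 0.56 (SE 0.11, limma adjusted p = 6.42e-04).

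Gars, the glycyl synthetase whose gene makes both a cytosolic and a mitochondrial form, had the smallest adjusted p of the synthetases. It had 13.11, 13.42 and 13.48 in tumours, against 12.86, 12.89, 12.81, 12.77 and 12.71 in normals. It rose by 0.53 (SE 0.08, limma adjusted p = 7.77e-05). Farsb had 11.59, 11.90 and 12.18 in tumours, against 11.59, 11.42, 11.48, 11.35 and 11.37 in normals, and rose by 0.46 (SE 0.09, limma adjusted p = 9.95e-04), while its partner Farsa had a difference of 0.10 (95% interval −0.06 to 0.26). The groups of Farsb touched at tumour 2 and normal 1.

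Lars, for leucine, split the tumours. It had 9.69, 10.41 and 10.51 in tumours (lowest, median, highest), against 9.59, 9.72, 9.73, 9.75 and 9.76 in normals. Tumours 2 and 3 had 9.69 each, within the range of the normals, and the other 5 had at least 10.38. Lars rose by 0.53 (SE 0.16, limma adjusted p = 0.0133), and this call was lost under cyclic loess (0.37) and in the exact rank-sum test, as were those of Nars (0.15 under cyclic loess) and Tars (0.19). Qars, for glutamine, had 12.09, 12.36 and 12.60 in tumours, against 11.80, 11.98 and 12.09 (lowest, median, highest) in normals, and rose by 0.43 (SE 0.09, limma adjusted p = 0.00138). Sars, for serine, had 9.45, 9.85 and 10.10 in tumours, against 9.36, 9.29, 9.41, 9.56 and 9.61 in normals, and rose by 0.38 (SE 0.11, limma adjusted p = 0.00843). In both genes tumour 2 was the tumour that overlapped the normals, and both calls were lost under cyclic loess (0.18 for Qars and 0.22 for Sars).

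Tars, for threonine, and Nars, for asparagine, passed the threshold narrowly. Tars had 8.01, 8.51 and 8.63 in tumours, against 8.13, 7.87, 7.92, 8.22 and 8.24 in normals, with tumours 2 and 3 among the normals, and rose by 0.32 (SE 0.12, limma adjusted p = 0.0315). Nars rose by 0.32 (SE 0.12, limma adjusted p = 0.0341). Nars was no longer called without tumour 4 (0.29), 6 (0.26) or 7 (0.32) or normal 2 (0.31), 3 (0.31) or 4 (0.27), and Tars without tumour 1 (0.31), 4 (0.30), 5 (0.32), 6 (0.29) or 7 (0.30) or normal 2 (0.27) or 3 (0.28).

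The 8 synthetases not called were Mars (0.22), Iars (0.19), Kars (0.12), Farsa (0.10), Hars (0.08), Aars (0.02), Wars (−0.03) and Eprs (−0.13). Mars, for methionine, had 9.47, 9.77 and 9.91 in tumours, against 9.78, 9.40, 9.38, 9.51 and 9.51 in normals, with overlap. It missed the threshold at a limma adjusted p = 0.0541. Mars was called higher in 10 of 25 alternatives, among them those without tumour 2 (0.24), tumour 6 (0.27) or normal 1 (0.29). When centred on the reference genes it was called lower (−0.44). Iars, for isoleucine, was called higher in 3 of 25 alternatives, among them that without tumour 3 (0.24). Eprs, which joins the glutamyl and prolyl enzymes in 1 chain, was called lower in 3 of 25, among them that without tumour 6 (−0.17). Aars, for alanine, held a motif match in its promoter and had a 95% interval of −0.25 to 0.30, with −0.14 under cyclic loess; Kars had −0.06 there. Cars and Yars were not above background on enough arrays to be tested, with Cars above it on 2 of 7 tumours and 0 of 5 normals and Yars on none, and Dars had no probe.

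Probes of the same gene disagreed for 3 synthetases. For Wars, whose messenger RNA interferon is known to induce, the brightest probe (ILMN_1254157) gave −0.03 and was not called, while the other 3 gave 0.21, 0.24 and 0.34 and were called higher. For Mars the second probe gave 0.44 and was called. For Tars the second probe gave −0.11 and was not called. The 2 kept probes of Rars (0.65 and 0.71), of Farsb (0.46 and 0.53) and of Sars (0.38 and 0.41) were all called, as were the 3 of Vars (0.56, 0.56 and 0.20).

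Mitochondrial synthetases gave other values. Of 12 measured genes 1 rose (8.33%, against 32.5% of all genes) and 2 fell (16.7%, against 23.6%), with 9 not called, and their median was −0.08. Rars2 (0.35) rose and Lars2 (−0.54) fell, as did Fars2, which averaged 10.15 ± 0.20 in tumours and 11.15 ± 0.08 in normals (SD, n = 7 and 5). The difference between cytosolic and mitochondrial lists was not tested. Of 3 scaffold proteins that hold synthetases together in 1 complex, Eef1e1 rose (0.70), and Aimp1 (0.11) and Aimp2 (−0.01) were not called.

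**Figure D3:**
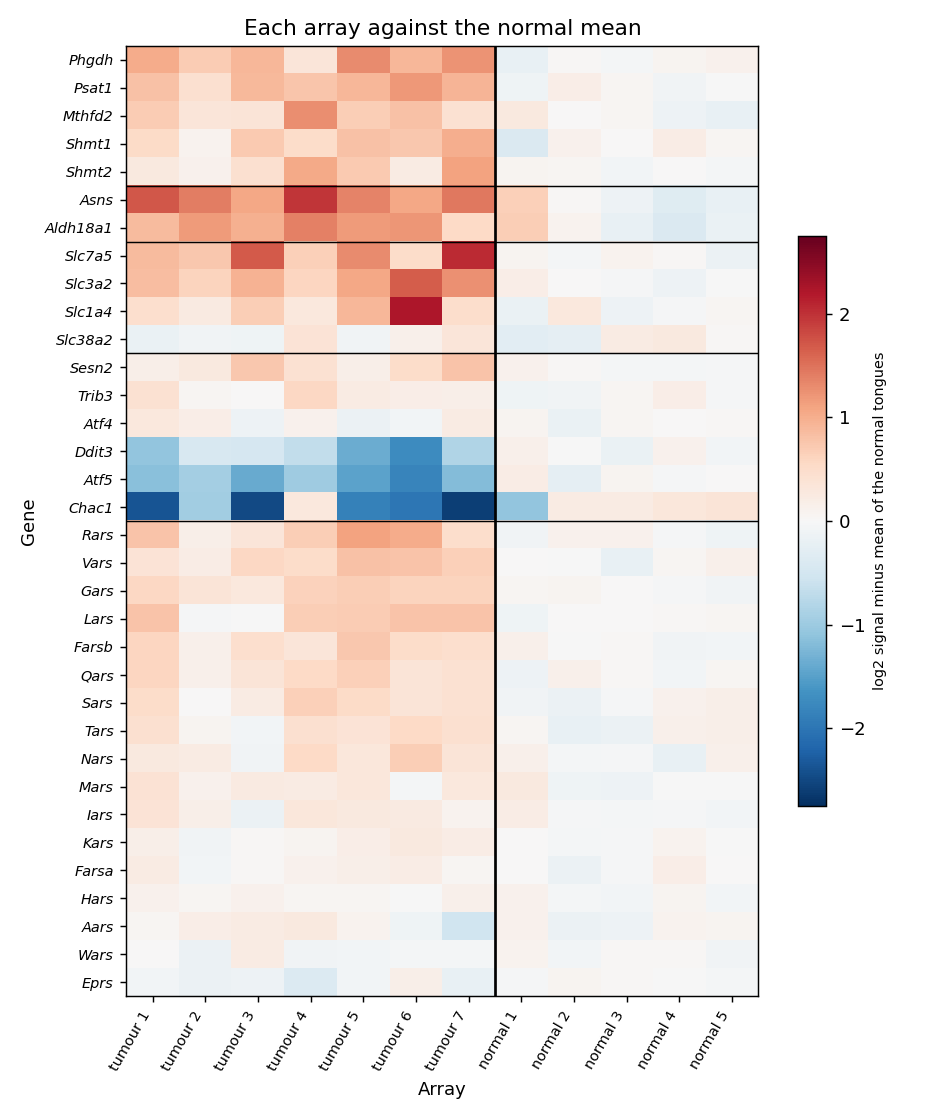
Log2 signal of each of the 34 genes (rows, grouped by role) on each array (columns, tumours left) minus the mean of the 5 normals. Synthesis enzymes, Slc7a5, Slc3a2 and Slc1a4 are higher in the tumours than the mean of the normals, with Slc38a2 on both sides of it, Atf5 and Ddit3 are lower in all 7, Chac1 is near the normals in tumour 4, and tumour 2 has the lowest mean over the synthetases (9.86); centring on the reference genes turns the synthetases below 0 and leaves Asns called higher.

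The tumours were not alike in these genes. Tumour 2 was the lowest of the 7 tumours for 14 of the 34 genes (41.2%), against 25.5% of all genes, and its median difference from the normal mean over the 34 genes was 0.14, where the others had 0.24 to 0.45. Its mean over the cytosolic synthetases was 9.86, against 9.93 to 10.18 in the other tumours and 9.74 to 9.82 in normals. Tumour 2 also had the highest muscle marker signal of the tumours (12.71) and the high salivary markers given above. Without tumour 2, 22 of the 34 genes were called higher and 3 lower. Tumour 4 was the highest tumour for 8 of the 34 genes (23.5%), against 11.4% of all genes, among them Asns (12.63), Aldh18a1 (9.70) and Chac1 (11.87). The median SD of the 34 genes was 0.24 in tumours and 0.12 in normals, and that of all genes was 0.21 in tumours and 0.12 in normals.

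Other genes of the pathway were read from lists, beside the 32.5% of all genes called higher and 23.6% called lower. Among 17 measured further ATF4 targets, 8 rose and 1, Cebpg (−0.19), fell, with a median of 0.27. Slc7a11, the cystine carrier, rose by log2 3.20, Ddit4, an mTORC1 inhibitor, by 1.30 and Slc6a9, a glycine carrier, by 1.19. Slc7a11 and others of this list also answer to other stress pathways. Of 10 measured genes of the eIF2 kinases and initiation machinery 4 rose and 1, Eif2b4 (−0.32), fell, with a median of 0.16. The largest differences were in Ppp1r15b (0.68), a subunit of the eIF2 phosphatase, Eif2ak2 (0.65), the kinase PKR, and Eif2b2 (0.33).

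Endoplasmic reticulum chaperones and unfolded protein response genes rose in 7 of 13 measured cases (53.8%, against 32.5% of all genes) and fell in 2 (15.4%, against 23.6%), with a median of 0.40. Pdia4 (1.18), a disulphide isomerase, Calr (1.02), calreticulin, and Hsp90b1 (0.88), a chaperone, rose most, while Herpud1 (−0.80) and Dnajb9 (−0.60) fell. Hspa5, the chaperone BiP, had a difference of 0.30 and was not called. Its probe was dim, averaging 7.55 in tumours and 7.25 in normals, against 12.38 and 11.50 for Hsp90b1. Centring on the reference genes turns the rises of Eif2b2 and Rars2 and the value of Hspa5 below 0, as it does all differences between 0 and 0.65.

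**Figure D4:**
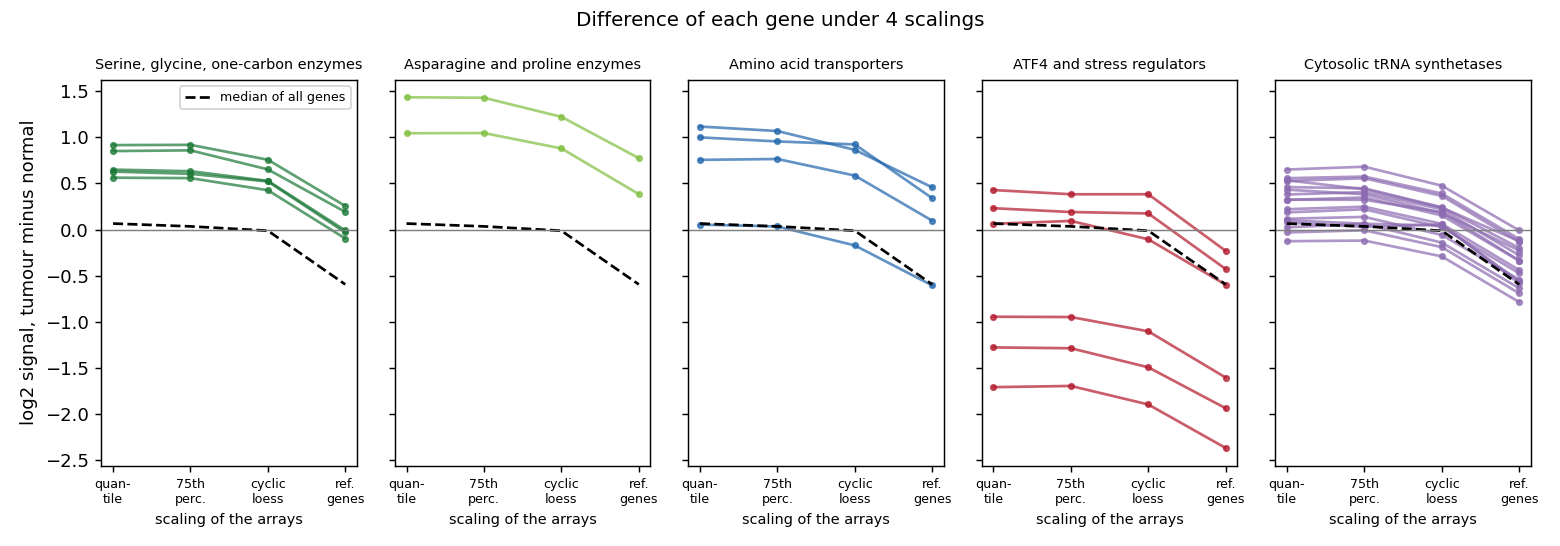
Log2 difference, tumour minus normal, of each gene (coloured lines, 1 panel per role) and the median of all genes (dashed) under 4 scalings of the arrays. Asns lies above 0 and Atf5, Ddit3 and Chac1 below 0 under each, whereas the synthetases lie mostly above 0 with the quantile step and all below 0 when centred on the reference genes, as the median of all genes does at −0.59.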

How the data were processed

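Each of 12 tongue pieces was hybridised to its own Illumina bead array of 1 colour. The authors deposited log2 values of 25697 probes (base inferred from their range). All arrays share 1 median and differ in quartiles. Per the submitters' processing notes, BeadStudio and Partek 6.6 were used, with no role stated. A second table was not used because the names of its 24 value columns fit no label, so the planned detection p-values and neqc gave way to their stated substitute.

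Values were returned to the linear scale, background corrected (normexp, offset 50), quantile normalised and expressed in log2. A probe was kept if above background (mode plus 1.64 SD of the side below it, a tail of 5%) on 5 or more arrays, leaving 15694 probes (61.1%), with 14734 to 15375 probes above background per array. The number of arrays limits the precision. A gene was its kept probe of highest mean. Of the probes 23978 carried 1 symbol and 1719 none, and 23962 matched RefSeq GRCm38.p6. Symbols matched as listed, or with a final 1 for synthetases.

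Groups were compared with limma 3.58.1 in R 4.3.3 (two-sided, Benjamini-Hochberg over probes kept, threshold 0.05), with the test checked on simulated data. Members and lists were chosen with earlier results of these data known. Values are given in full for the 4 members of each role (8 for the synthetases) with the largest differences called, those called lower and the largest not called, and also for Shmt2 and Atf4. Of each pathway list the 3 largest called are named. Other genes of those lists and of the marker lists were named after their values were seen. Alternatives covered background, scaling, filter, probes, test, a replicate block and leaving out arrays. Replicate numbers were not taken to pair the pieces. Figures used matplotlib 3.10.9.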

Additional observations from a re-analysis of the deposited data

Results flagged for a closer look

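Among 68 sets of values (34 genes in 2 groups), 4 had a sample far from the others of its group, and chance gives about 1 such set in 20. Slc1a4 was 11.11 on tumour 6, against 9.13 to 9.80 on the other tumours. The other 3 were all on normal 1, which also had the high salivary gland markers. Chac1 was low there at 10.51, against 11.81 to 11.94 on the other normals. Iars was high there at 10.39, against 10.10 to 10.15. Lars was low there at 9.59, against 9.72 to 9.76. The part of gland tissue in these values was not tested.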

How the results depend on the processing

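Over 25 alternatives, Asns, Atf5 and Ddit3 kept direction and call in every one, and with centring on the reference genes set aside 20 of the 34 genes did. That centring left 1 gene called higher and 16 lower (median −0.25), and turned the sign of 22 genes, with log2 differences of Shmt1 −0.031, Shmt2 −0.10, Mthfd2 −0.0092, Slc38a2 −0.60, Atf4 −0.60, Trib3 −0.43, Sesn2 −0.23, Aars −0.63, Farsa −0.56, Farsb −0.20, Gars −0.12, Hars −0.58, Iars −0.47, Kars −0.54, Lars −0.13, Mars −0.44, Nars −0.34, Qars −0.23, Rars −0.0085, Sars −0.28, Tars −0.33 and Vars −0.10. The reference genes were themselves higher in tumours, which by construction lowers every gene. Cyclic loess gave 14 higher, 5 lower and a median of 0.20, ending the calls of Slc1a4, Lars, Nars, Qars, Sars and Tars and adding Eprs and Wars as lower, and the cause was not tested. With the mean over probes Wars turned to 0.19 and was called higher, since 3 of its 4 probes kept were. Counts over single leave-outs were 17 to 22 higher and 3 to 4 lower (medians 0.37 to 0.45), and 20 and 3 without tumour 2 and normal 1. With the replicate number as a replicate block, in replicates 1 to 5, 18 were higher and 3 lower. Without the block the same arrays gave the same totals with other genes, since Sesn2 (0.34) was called without it alone and Tars (0.25) with it alone. Deviations of same-numbered pieces from their group means had correlations of −0.37 to 0.10. Such values cannot decide whether the numbers pair the pieces, though the tumours came from dosed mice and the normals from mice given DMSO. The number of arrays and dim probes limit what can be seen, and 5 genes with probes stayed untested.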
